A study of Homo sapiens with 16 samples.

Results

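SW480 is a human cell line from a colon adenocarcinoma, and the study changed its level of Ajuba, a LIM-domain scaffold protein, by lentiviral transduction. The 6 RNA-seq samples of the 2 Ajuba knockdown (KD) lines were set against the 7 samples of all 3 control lines, which makes 13 of the 16 samples and 5 of the 6 lines of the series. The KD lines were shAjuba1, whose short hairpin RNA targets the coding region of AJUBA (3 samples), and shAjuba2, whose hairpin targets a non-coding region (3 samples). The controls were Parental, the unmodified SW480 cells (2 samples), and shScrambled, cells carrying a non-mammalian control hairpin (2 samples). The last was Control, cells transduced with the overexpression construct from which the Ajuba sequence had been clonally excised (3 samples). All lines but Parental went through lentiviral transduction and puromycin selection. The 3 samples of Ajuba OE, the overexpression line, entered no comparison, and their levels are given beside part of the genes named, set against the same control samples. The study calls the samples of 1 line technical replicates, so each line was taken as 1 transduced culture. P-values over samples with the line as a factor measure only the spread within lines. Those over samples as 2 groups count the replicates of 1 line as independent.

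A gene was counted as non-overlapping when its level in all 6 KD samples lay above, or below, its level in all 7 control samples. Of 23315 genes tested, 1158 (4.97%) were non-overlapping. Among them 555 (2.38% of genes tested) were higher and 603 (2.59%) lower in KD. Levels are given in CPM, counts brought to a common library size with TMM scaling, which are not divided by gene length and so were compared between samples and not between genes. Unless stated otherwise, 3 CPM values in a row are the lowest, the median and the highest of a group.

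Ajuba belongs with LIMD1 and WTIP to a small family of LIM proteins that shuttle between cell junctions and the nucleus. At adherens junctions it binds alpha-catenin, in the Hippo pathway it binds the LATS kinases that restrain YAP and TAZ, and in the nucleus it is a corepressor of the Snail factors. Snail and ZEB factors bind short E-box sequences and silence epithelial genes such as CDH1, the gene of E-cadherin, while colon epithelium is held together by E-cadherin, EPCAM, claudins and desmosomes. Loss of those genes with gain of mesenchymal ones is known as epithelial-mesenchymal transition.

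The 13 samples held 30132396 to 53584129 counts each. Of the 12 colon epithelial markers, CDX1 and CEACAM5 were too low to be tested, and the summed level of the 12 was 4065 to 6608 CPM in controls and 2902 to 5496 CPM in KD samples. Summed markers of fibroblasts (26.9 to 44.1 CPM in KD, 24.3 to 34.0 in controls), endothelium (11.9 to 23.0 and 11.3 to 18.0) and leukocytes (3.85 to 4.94 and 5.41 to 7.37) were low throughout, and the B-cell gene MS4A1 had no count in any of the 13. Of the marker genes tested, EPCAM and VIL1 among 10 for colon epithelium and LYZ among 7 for leukocytes were non-overlapping and lower, PECAM1 among 5 for endothelium was higher, and none of 6 for fibroblasts was either. ShAjuba2 replicate 2 and Control replicate 2 stood apart, with summed cytosolic ribosomal protein genes at 13662 and 17998 CPM against 27039 to 41728 CPM in the other 11. Without these 2 samples 1141 genes were non-overlapping and higher (4.89%) and 1137 lower (4.88%), and without Control replicate 2 alone 1032 and 1049, with the filter and scaling of the 13 samples kept.

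AJUBA (chr14:22971177-22982551, GRCh38) was lower in every KD sample. It stood at 49.9, 47.7 and 53.3 CPM in shAjuba1 replicates 1 to 3 and at 57.9, 68.1 and 56.1 CPM in shAjuba2. Parental had 89.7 and 93.5 CPM, shScrambled 84.3 and 81.9 CPM, and Control 90.9, 100.1 and 89.7 CPM. The groups did not overlap, and Ajuba OE reached 569, 499 and 604 CPM. The log2 fold change of the 2 KD lines against the 3 control lines was -0.71 ± 0.14 (SE). Its adjusted p was 0.2 with edgeR on counts summed per line and 0.00475 with limma on the 13 samples with the line as a random block. The limma fit takes 1 correlation within lines for all genes. Where the lines of a gene differ more than that, its p-value still counts technical replicates in part as independent. An exact two-sided permutation test of the line means gave p = 0.2, the smallest value that 10 arrangements of 2 against 3 lines allow. Reads of the endogenous gene and of the construct were not told apart in Ajuba OE.

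The relatives of Ajuba did not move together. WTIP, whose protein also binds LATS kinases, was non-overlapping and higher in KD, with 43.0, 49.1 and 71.4 CPM against 26.9, 31.9 and 40.1 CPM in controls. LIMD1, the other close relative, overlapped between the groups (49.1 to 62.1 CPM in KD and 43.3 to 52.6 CPM in controls). Among the more distant zyxin family, ZYX, a focal adhesion protein, was higher at 154 to 223 against 103 to 140.1 CPM, and LPP, found at the same adhesions, was lower at 109 to 132 against 133 to 198 CPM. Of the 7 family genes tested 4 were therefore non-overlapping (57.1%, beside 4.97% of all genes), AJUBA included, with 2 in each direction. EPHA2, a receptor tyrosine kinase of epithelial cells, was higher in KD at 252, 301 and 342 CPM against 163, 176 and 217 CPM. EGFR, the receptor of epidermal growth factor, was non-overlapping by a small margin (157 to 167 against 119 to 149 CPM). RPS6, a ribosomal protein, overlapped (144 to 572 against 278 to 844 CPM).

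How far the comparison holds depends on what is taken as the replicate. With the line as the unit, edgeR's quasi-likelihood test called 0 of 23315 genes at an adjusted p under 0.05, while 2714 (11.6%) had an unadjusted p under 0.05. The smallest adjusted p was 0.145. DESeq2 on the same line sums called 549 genes (2.35%), limma with the line as a random block called 467 (2%), edgeR on the 13 samples as 2 groups called 3061 (13.1%), and edgeR by lines on all genes with at least 1 count called 1032. The same test with the line as a factor over samples, which sees only the spread within lines, called 6669 genes (28.6%). Of the 1158 non-overlapping genes, limma called 180 of the 555 higher and 256 of the 603 lower ones, beside 0.836% and 1.17% of all genes in these directions. These genes were picked on the same values, so their fold changes and p-values describe them and are no separate support. Fold changes given with an SE are from edgeR on counts summed per line, where no adjusted p was under 0.145. Any limma adjusted p beside them is from the separate limma fit, with the limit given for AJUBA. Their median log2 fold change was 0.62 for the higher and -0.68 for the lower genes, and 302 of 1158 differed by at least 1 on the log2 scale. The rule has a sharp edge. FANCG lay just inside it with a gap of 4.4e-05 between the groups on the log2 scale, and LIMS2 just outside with a gap of -0.00069.

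The 12 genes with the widest gap among those higher in KD included a transcription factor, a transcriptional corepressor, an angiomotin and a kinase. LMX1B, a LIM-homeodomain transcription factor of limb and neuron development, had 5.39, 6.45 and 7.02 CPM in KD and 1.74, 1.95 and 2.65 CPM in controls. Its log2 fold change was 1.52 ± 0.24 (SE) with edgeR by lines, whose adjusted p was 0.145. The separate limma fit gave an adjusted p of 0.000739. AMOTL1, an angiomotin that binds YAP at junctions, had 93.1, 109.6 and 129 CPM in KD and 20.8, 25.8 and 56.6 CPM in controls. Parental was the highest control for AMOTL1, at 56.6 and 47.7 CPM, and Ajuba OE was far below all of them at 1.43, 0.969 and 1.96 CPM. ALPK2, an alpha-kinase, followed the same order, with 44.5, 49.8 and 65.0 CPM in KD, 17.9, 18.9 and 27.6 CPM in controls and 1.08, 1.08 and 0.965 CPM in Ajuba OE. CRACDL had 3.20 to 4.16 CPM in KD, 0.693 to 1.68 CPM in controls and 0.0804 to 0.208 CPM in Ajuba OE. For these 3 genes KD lay above and Ajuba OE below every control sample.

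SYDE1, a GTPase-activating protein, had 35.2, 39.6 and 44.3 CPM in KD and 13.4, 15.5 and 21.6 CPM in controls. ANKRD33B, an ankyrin repeat gene, had 7.81, 10.0 and 11.5 against 2.42, 2.49 and 3.96 CPM. Ajuba OE was again below the controls, at 7.10 to 10.4 CPM for SYDE1 and 0.496 to 1.05 CPM for ANKRD33B. CALB2, the gene of the calcium-binding protein calretinin, differed between the KD lines, with 5.29 to 5.50 CPM in shAjuba1, 1.01 to 1.49 CPM in shAjuba2 and 0.386 to 0.590 CPM in controls. RNF152, an E3 ubiquitin ligase of lysosomes, did so the other way round, with 1.07 to 1.43 CPM in shAjuba1, 2.40 to 3.06 CPM in shAjuba2 and 0.443 to 0.655 CPM in controls. TNFSF15, a cytokine of the TNF family, was at 1.67 to 3.52 against 0.548 to 1.03 CPM. The remaining 3 of the 12 widest gaps were at low levels, with KD against control ranges of 1.25 to 1.94 and 0.277 to 0.686 CPM for the transcriptional corepressor CBFA2T3, 2.37 to 3.89 and 0.828 to 1.37 CPM for the anion transporter SLC26A11, and 1.29 to 1.67 and 0.471 to 0.800 CPM for the neuronal membrane protein ISLR2. Ajuba OE lay below all controls for RNF152 (0.0268 to 0.0594 CPM) and SLC26A11 (0.267 to 0.631 CPM) and overlapped them for LMX1B, CALB2, TNFSF15, CBFA2T3 and ISLR2. Ranked instead by the p-value of the fit by lines, the 5 leading higher genes were TMEM132A, ADAMTS7, KISS1R, HELZ2 and ANKRD33B. TMEM132A had 65.7, 82.2 and 105 CPM in KD against 23.3, 33.3 and 41.8 CPM in controls, and ADAMTS7, a secreted metalloproteinase, 17.9 to 25.3 against 6.41 to 11.5 CPM. HELZ2, a nuclear helicase, had 85.4 to 143 against 48.4 to 64.8 CPM. KISS1R, the receptor of the metastasis suppressor kisspeptin, was low at 0.503 to 1.16 against 0.0554 to 0.236 CPM.

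**Figure D1:**
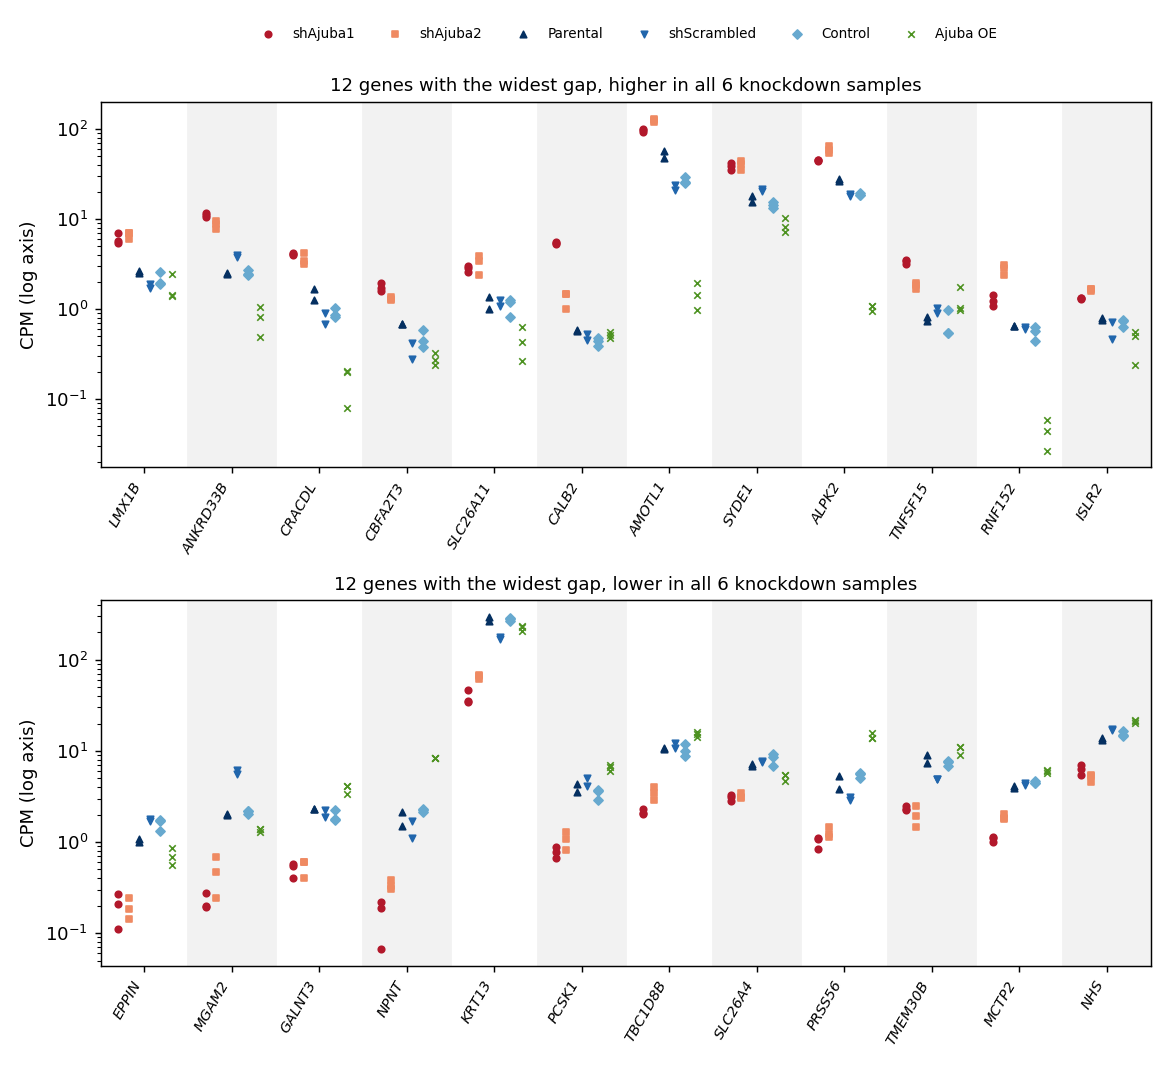
Level of the 12 higher (top) and 12 lower (bottom) genes with the widest gap between groups, in CPM on a log axis, with 1 point per sample and a colour and marker per line. All red and orange points (KD) lie on one side of all blue points (controls), as the rule requires, while the green crosses (Ajuba OE) lie beyond the controls on the far side from KD for some genes, such as AMOTL1, ALPK2, CRACDL and NPNT, on the same side as KD for EPPIN, MGAM2 and SLC26A4, and among the controls for others, such as CALB2 and KRT13.

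The 12 genes with the widest gap among those lower in KD included a keratin, a glycosylation enzyme and secreted proteins. KRT13, a keratin of stratified epithelia, had 34.8, 54.1 and 67.7 CPM in KD and 169, 269 and 296 CPM in controls. Its log2 fold change was -2.25 ± 0.29 (SE) with edgeR by lines (adjusted p = 0.145). The separate limma fit gave an adjusted p of 0.00015. shAjuba1 was lower than shAjuba2 for KRT13, with 34.8 to 46.2 against 62.1 to 67.7 CPM. GALNT3, an enzyme that starts O-linked glycosylation of mucins, had 0.402, 0.560 and 0.607 CPM in KD and 1.73, 2.23 and 2.30 CPM in controls, and Ajuba OE had 4.10, 3.38 and 4.07 CPM. EPPIN, a secreted protease inhibitor, was at 0.110 to 0.268 against 1.01 to 1.79 CPM with 0.563 to 0.856 CPM in Ajuba OE. PCSK1, a prohormone convertase, was at 0.670 to 1.28 against 2.91 to 5.02 CPM with 5.95 to 7.02 CPM in Ajuba OE. NPNT, the integrin ligand nephronectin of basement membranes, had 0.0670 to 0.380 CPM in KD, 1.1 to 2.28 CPM in controls and 8.31 to 8.34 CPM in Ajuba OE. For GALNT3, PCSK1 and NPNT, KD lay below and Ajuba OE above every control sample. TBC1D8B, a RAB GTPase-activating protein, had 2.01, 2.60 and 4.01 CPM in KD and 8.74, 10.8 and 12.4 CPM in controls, and NHS, a regulator of actin at the cell edge, 4.51, 5.48 and 7.0 against 13.3, 14.9 and 17.5 CPM. Both were highest in Ajuba OE, at 14.4 to 16.2 and 20.3 to 21.6 CPM. MCTP2, a membrane protein with C2 domains, was at 0.992 to 2.04 against 3.93 to 4.63 CPM, and SLC26A4, the anion exchanger pendrin, at 2.84 to 3.42 against 6.88 to 9.25 CPM, with 5.70 to 6.19 and 4.69 to 5.49 CPM in Ajuba OE. PRSS56, a serine protease, was at 0.838 to 1.45 against 2.88 to 5.73 CPM and reached 13.8 to 15.8 CPM in Ajuba OE. MGAM2 was at 0.193 to 0.682 CPM in KD. Its controls were split, with 5.54 and 6.12 CPM in shScrambled and 1.97 to 2.22 CPM in Parental and Control. Ajuba OE had 1.28 to 1.39 CPM, so that for EPPIN, SLC26A4 and MGAM2 Ajuba OE lay below every control sample, as KD did. It overlapped the controls for KRT13, at 206 to 238 CPM. The last of the 12, TMEM30B, is described with the epithelial genes.

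A list of 50 epithelial genes was written after these values had been seen, and its counts are a description of it. Of its genes 22 were non-overlapping and lower in KD and 0 were higher (44%, beside 4.97% of all genes), its median log2 fold change was -0.62 beside -0.0027 for all genes tested, and 5 of the 50 lay above 0. limma called 20 of the 50, all lower. ESRP1, the splicing factor that keeps epithelial isoforms, had 6.97, 9.85 and 15 CPM in KD and 27.5, 42.7 and 44.8 CPM in controls, with 66.7, 54.0 and 63.4 CPM in Ajuba OE. Its log2 fold change was -1.85 ± 0.29 (SE) with edgeR by lines (adjusted p = 0.145), and the separate limma fit gave an adjusted p of 0.000683. shAjuba1 was the lower of the KD lines for ESRP1, and shScrambled, at 27.5 and 28.2 CPM, the lowest control. EPCAM, the epithelial cell adhesion molecule, had 48.0, 72.1 and 86.4 CPM in KD and 112, 144 and 159 CPM in controls, with 251, 189 and 221 CPM in Ajuba OE. AP1M2, an adaptor subunit for sorting to the basolateral membrane, had 1.83, 3.57 and 4.46 CPM in KD and 7.48, 9.01 and 12.1 CPM in controls. Ajuba OE lay above every control for ESRP1 and EPCAM and overlapped the controls for AP1M2.

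OVOL2, a transcription factor that represses ZEB1, was at 1.69, 1.89 and 2.26 CPM in KD against 2.91, 3.72 and 4.46 CPM in controls. ZEB1 itself, a repressor of epithelial genes, was higher in KD, at 28.7, 31.5 and 36.0 CPM against 16.1, 18.8 and 21.3 CPM. Its log2 fold change was 0.70 ± 0.15 (SE) with edgeR by lines, which did not call it. The separate limma fit gave an adjusted p of 0.00434. In Ajuba OE, OVOL2 lay above all controls at 4.72 to 5.83 CPM and ZEB1 below them at 11.4 to 12.4 CPM. FGFR2, a receptor whose epithelial isoform depends on ESRP proteins, was at 2.68 to 4.85 against 7.21 to 9.62 CPM, and MACC1, a gene linked to colon cancer metastasis, at 4.70 to 5.30 against 8.96 to 20.8 CPM. ERBB3, a receptor of the EGFR family, was at 24.8 to 37.3 against 45.4 to 61.2 CPM. ST14, the membrane protease matriptase, was at 34.5 to 45.8 against 55.4 to 88.2 CPM, and LAD1, an anchoring protein of basement membranes, at 11.7 to 15.6 against 22.2 to 29.4 CPM. CRB3 and PATJ, members of the apical Crumbs polarity complex, were both lower, at 2.38 to 4.45 against 4.77 to 7.37 CPM and 29.9 to 38.7 against 48.1 to 53.9 CPM. Other lower genes of the list were TMEM30B, CLDN7, F11R, SERPINB5, MARVELD3, MYO5C, TMC4, BSPRY and FGFBP1. FGFBP1 had no count in 2 shAjuba2 samples. CDH1 itself, looked up for its role, overlapped, with 12.5, 13.6 and 14.8 CPM in shAjuba1, 6.80, 3.89 and 4.57 CPM in shAjuba2, 7.96 and 8.26 CPM in shScrambled and 19.1 to 25.2 CPM in Parental and Control. Without shAjuba1 30 of the 50 were non-overlapping and lower, beside 6.36% of all genes, without shAjuba2 23 beside 11.4%, and without the 2 samples low in ribosomal protein genes 24 beside 4.88%.

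**Figure D2:**
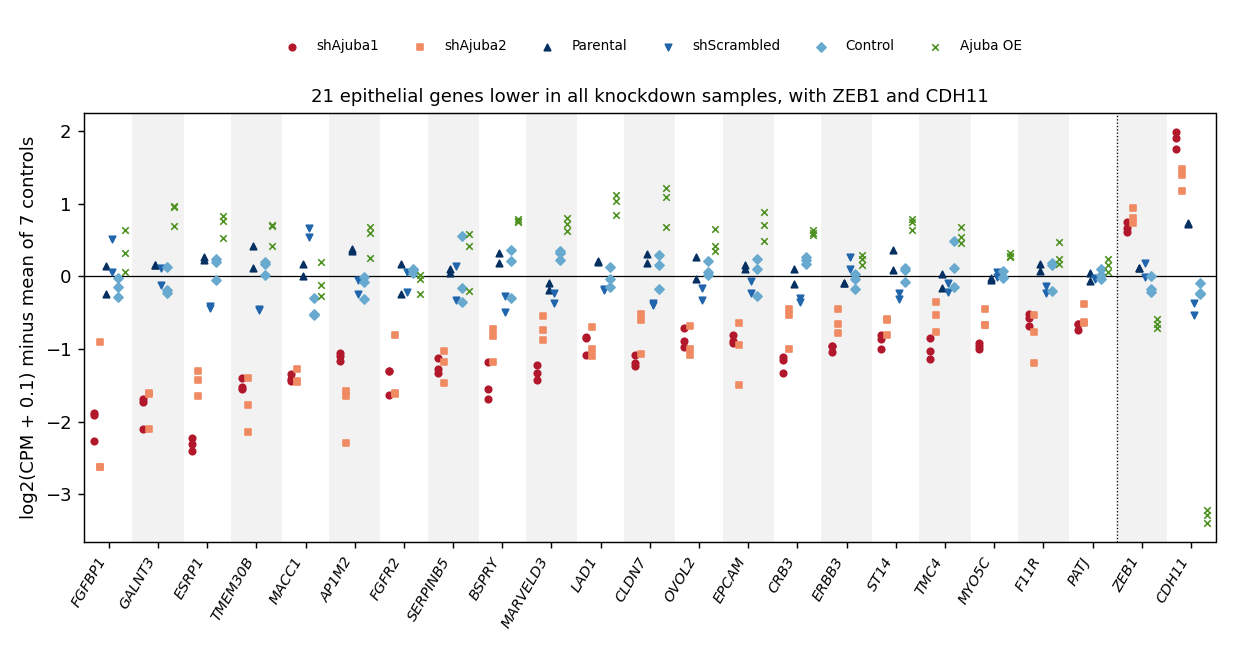
The 21 epithelial genes drawn of those that were lower in all KD samples, and ZEB1 and CDH11 to the right of the dotted line, as log2(CPM + 0.1) minus the mean of the 7 control samples, with 1 point per sample. KD samples (red, orange) sit below all controls (blue) for the 21 genes and above them for ZEB1 and CDH11, and Ajuba OE (green crosses) sits above the controls for genes such as CLDN7 and LAD1 and below them for ZEB1 and CDH11.

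The E-box CACCTG, or CAGGTG on the other strand, is the sequence that Snail and ZEB factors are known to bind, and the promoters of epithelial genes were read for it. RefSeq windows of 300 bases around the transcription start (GRCh38.p14) were at hand for 27305 genes, and 20.6% of them held the E-box on either strand. Among genes tested with a window it was 19.7% (2666 of 13549), among non-overlapping genes that were higher in KD 18.4% (71 of 385), and among those that were lower 29.7% (136 of 458). Of the 27 epithelial genes with a window 15 held it (55.6%), and of the 14 lower ones among them 11 (78.6%). That list was written after the values were seen and holds genes of the kind that Snail and ZEB factors are known to silence. Its shares therefore describe the list and are no separate support. A second motif, GGAATG or CATTCC, the core bound by TEAD factors, was in 11.4% of the windows of lower and 10.6% of those of higher genes, beside 11.6% of genes tested. A match to 6 letters is a description of the window and shows no binding. The windows printed below are picked examples and do not stand for their groups. As counted above, 71 of 385 higher genes held the E-box too, and 11 rather than all of the 14 lower epithelial genes did. The windows of 5 lower epithelial genes and of AMOTL1, which was higher and had no match, show how the E-boxes (in capitals) lie, each written 5′ to 3′ along the gene. CRB3 (chr19:6464021-6464320, plus strand) held 5, TMEM30B (chr14:61281289-61281588, minus strand) 4, AP1M2 (chr19:10587263-10587562, minus strand) 3, LAD1 (chr1:201399275-201399574, minus strand) 2 and GALNT3 (chr2:165794198-165794497, minus strand) 2, and the AMOTL1 window was chr11:94768106-94768405 on the plus strand.
CRB3: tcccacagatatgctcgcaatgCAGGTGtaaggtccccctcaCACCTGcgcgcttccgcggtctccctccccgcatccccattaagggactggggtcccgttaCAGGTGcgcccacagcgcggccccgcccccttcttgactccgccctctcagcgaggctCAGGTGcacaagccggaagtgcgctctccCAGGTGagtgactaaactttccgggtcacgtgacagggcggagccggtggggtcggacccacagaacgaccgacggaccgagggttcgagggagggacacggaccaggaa
TMEM30B: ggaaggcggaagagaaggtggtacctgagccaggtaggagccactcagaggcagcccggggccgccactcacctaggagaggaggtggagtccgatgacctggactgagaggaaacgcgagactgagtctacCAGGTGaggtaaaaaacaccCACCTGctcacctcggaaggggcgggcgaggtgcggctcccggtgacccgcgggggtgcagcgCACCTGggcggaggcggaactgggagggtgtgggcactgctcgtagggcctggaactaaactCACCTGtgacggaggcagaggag
AP1M2: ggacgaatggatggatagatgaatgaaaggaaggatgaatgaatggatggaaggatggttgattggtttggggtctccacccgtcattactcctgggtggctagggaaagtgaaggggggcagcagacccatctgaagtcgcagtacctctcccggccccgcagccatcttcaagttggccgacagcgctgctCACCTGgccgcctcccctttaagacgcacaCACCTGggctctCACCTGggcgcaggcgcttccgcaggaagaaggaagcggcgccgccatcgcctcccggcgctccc
LAD1: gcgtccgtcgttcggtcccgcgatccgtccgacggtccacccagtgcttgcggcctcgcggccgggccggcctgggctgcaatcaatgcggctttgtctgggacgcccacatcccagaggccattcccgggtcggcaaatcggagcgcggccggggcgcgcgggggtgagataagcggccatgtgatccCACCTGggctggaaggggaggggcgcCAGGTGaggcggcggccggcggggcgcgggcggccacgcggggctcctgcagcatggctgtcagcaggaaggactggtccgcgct
GALNT3: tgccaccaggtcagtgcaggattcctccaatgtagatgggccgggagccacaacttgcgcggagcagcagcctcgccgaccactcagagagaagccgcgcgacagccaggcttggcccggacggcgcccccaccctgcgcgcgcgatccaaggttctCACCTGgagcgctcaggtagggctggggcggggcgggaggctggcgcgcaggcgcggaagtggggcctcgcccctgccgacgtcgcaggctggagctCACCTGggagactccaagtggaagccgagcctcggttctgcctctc
AMOTL1: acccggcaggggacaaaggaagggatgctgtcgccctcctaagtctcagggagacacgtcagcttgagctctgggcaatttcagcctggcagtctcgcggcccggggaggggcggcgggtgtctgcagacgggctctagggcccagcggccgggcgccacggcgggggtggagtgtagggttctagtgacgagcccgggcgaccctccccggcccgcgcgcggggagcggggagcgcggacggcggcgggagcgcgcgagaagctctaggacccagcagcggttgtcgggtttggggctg
Most of each window lies before the start site by its layout, so that most of these E-boxes lie there too is no result. TMEM30B, the gene of a subunit of lipid flippases, had 1.45, 2.27 and 2.51 CPM in KD against 4.91, 7.33 and 9.07 CPM in controls.

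Junction genes were more often lower than higher. Of 38 genes of cadherins, catenins, desmosomes and tight junctions that were tested, 8 were non-overlapping and lower, 2 higher and 28 overlapped. The non-overlapping share was 26.3%, beside 4.97% of all genes. The median over the list was -0.26 on the log2 scale. limma called 6 of the 38, beside 2% of all genes. CDH3, the gene of P-cadherin, had 4.43, 7.45 and 9.68 CPM in KD and 10.8, 19.0 and 22.7 CPM in controls, and Ajuba OE reached 41.2, 38.7 and 40.6 CPM. CLDN7, a claudin of intestinal tight junctions, had 27.9, 31.0 and 45.9 CPM in KD and 49.7, 73.4 and 81.6 CPM in controls. DSG2, a desmosomal cadherin, was at 22.3 to 39.6 against 41.4 to 55.1 CPM. All 3 were above every control in Ajuba OE. The desmosomal DSC2 (1.18 to 1.47 against 1.58 to 3.75 CPM), the tight junction proteins OCLN (9.46 to 14.3 against 15.3 to 21.1 CPM) and F11R (9.26 to 14.8 against 18.1 to 24 CPM) and the catenin CTNND1 (181 to 203 against 226 to 277 CPM) completed the lower genes with EPCAM. Against this direction, CDH11, the cadherin of osteoblasts and mesenchymal cells, had 93.8, 128 and 164 CPM in KD and 28.6, 35.4 and 69.2 CPM in controls. Its log2 fold change was 1.52 ± 0.33 (SE) with edgeR by lines (adjusted p = 0.208). The separate limma fit gave an adjusted p of 0.00223. Parental was the highest control for CDH11, at 68.4 and 69.2 CPM against 28.6 to 39.0 CPM in shScrambled and Control. Ajuba OE had 4.35, 4.17 and 3.86 CPM. PCDH7, a protocadherin, was higher at a low level (0.268 to 0.708 against 0.0296 to 0.202 CPM).

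Of 15 Snail, Zeb and Twist factors and mesenchymal genes that were tested, ZEB1 alone was non-overlapping and higher, and TGFBI and ITGB6 were lower (20%, beside 4.97% of all genes). SNAI1, the gene of Snail and looked up like VIM after the values were seen, overlapped (1.63 to 3.21 CPM in KD and 1.86 to 4.02 CPM in controls). VIM, the gene of the mesenchymal filament vimentin, overlapped too (225 to 356 and 190.4 to 229.5 CPM), with 1 shAjuba2 sample within the controls. TGFBI, a secreted matrix protein induced by TGF-beta, had 40.0, 44.9 and 47.1 CPM in KD and 61.9, 67.1 and 93.8 CPM in controls. The list's median log2 fold change was -0.09.

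Matrix and integrin genes stood on both sides of the controls. Of 40 collagens, laminins, integrins and other basement membrane genes, 6 were non-overlapping and higher and 3 were lower (22.5%, beside 4.97% of all genes). limma called 7 of the 40, beside 2% of all genes. COL6A2, a chain of collagen VI, had 2.45, 5.10 and 7.05 CPM in KD and 0.946, 1.69 and 2.01 CPM in controls. Its partner chain COL6A1, looked up after this, overlapped by 1 sample pair, with 306 to 379.5 CPM in shAjuba1, 128 to 172 CPM in shAjuba2 and 84.0 to 136 CPM in controls. COL5A1, a fibrillar collagen, was at 1.86 to 5.23 against 1.01 to 1.64 CPM, with shAjuba2 the higher KD line. The basement membrane proteins NID1 (43.6 to 54.8 against 25.7 to 37.8 CPM), HSPG2 (125 to 176 against 75.7 to 121 CPM) and COL4A2 (53.5 to 61.6 against 38.8 to 48.0 CPM) were higher by smaller steps. COL4A1, looked up after this, which shares a promoter region with COL4A2, did not follow it (1.37 to 2.87 CPM in KD and 0.975 to 7.32 CPM in controls). LAMA4, a laminin chain of vessels and muscle, was higher but below 1 CPM in every sample. LAMA3, a chain of the epithelial laminin-332, was lower and had 35.4, 41.5 and 43.6 CPM in KD, 54.7, 74.4 and 83.9 CPM in controls and 114, 115 and 125 CPM in Ajuba OE. ITGB6 and ITGB8, integrin subunits that take part in activating TGF-beta, were lower too. ITGB6 had 0.689 to 1.34 against 2.19 to 2.80 CPM. ITGB8 had 4.41 to 8.78 CPM in KD, and its controls ran from 14.4 and 15.6 CPM in Parental to 51.8 and 61.3 CPM in shScrambled.

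Of 26 kinases and adaptors of the Hippo pathway AMOTL1 and WTIP were higher and none was lower. This share, 7.69%, was near the 4.97% of all genes. The median over the list was 0.10 on the log2 scale. The 25 YAP and TAZ targets were mixed, with 3 higher and 2 lower (20%, beside 4.97% of all genes) and a median of 0.17. F3, the gene of tissue factor, had 32.9, 34.6 and 37.0 CPM in KD and 16.8, 21.5 and 23.9 CPM in controls, AMOTL2 213 to 276 against 175 to 202 CPM and FJX1 16.4 to 28.0 against 11.4 to 15.6 CPM. ANKRD1, a classic YAP target, was lower at 192, 224 and 245 CPM against 306, 329 and 449.9 CPM, and so was TGFBI. Of 27 Wnt feedback genes and beta-catenin targets, NKD2, an antagonist of Dishevelled, was higher (35.3 to 59.5 against 18.6 to 28.7 CPM) and FGF9, a growth factor, lower (9.30 to 11.3 against 12.9 to 18.8 CPM). This share, 7.41%, was near the 4.97% of all genes.

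All 25 cholesterol synthesis genes lay below 0, with a median log2 fold change of -0.43, but the groups overlapped for 23 of them (8% non-overlapping, beside 4.97% of all genes). The 2 that did not were HMGCS1, the synthase upstream of the statin target, at 96.1 to 127 against 136 to 176 CPM, and HSD17B7, a later step, at 4.60 to 7.39 against 7.76 to 9.70 CPM. NF-kB targets and chemokines had the highest median, 0.76 over 21 genes, with 3 higher (14.3%, beside 4.97% of all genes). BCL3, an atypical inhibitor of NF-kB, was at 4.57 to 8.62 against 2.42 to 3.86 CPM, CXCL1 at 0.470 to 1.04 against 0.126 to 0.296 CPM and CXCL8 at 0.275 to 0.492 against 0.0457 to 0.207 CPM, both chemokines for neutrophils. That median rested on shAjuba1, whose list median was 0.99 above the controls against 0.13 for shAjuba2. TNFAIP3, an inhibitor of NF-kB looked up as an example, overlapped between the groups and had 8.38 to 9.94 CPM in shAjuba1, 2.58 to 3.85 CPM in shAjuba2 and 1.64 to 2.62 CPM in controls. Among 38 interferon response genes the transcription factors IRF1 (50.5 to 65.8 against 34.4 to 42.9 CPM) and IRF7 (18.8 to 23.5 against 12.2 to 18.8 CPM) were higher. OAS2, an antiviral enzyme, was lower, at 4.05 to 4.85 CPM in shAjuba1, 18.0 to 18.6 CPM in shAjuba2 and 23.6 to 30.6 CPM in controls. The non-overlapping share of the interferon list, 7.89%, was near the 4.97% of all genes.

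Of 17 aldehyde dehydrogenases, the family read by the stem cell assay of that name, ALDH1A3 (138 to 208 against 253 to 502 CPM) and ALDH3A1 (11.9 to 17.3 against 19.3 to 22.6 CPM) were lower and ALDH16A1 higher (65.7 to 82.0 against 51.3 to 64.6 CPM). The controls of ALDH1A3 were split, with 501 and 502 CPM in shScrambled and 253 to 284 CPM in Parental and Control. Of 14 colon cancer stem cell markers SOX2, a factor of pluripotent cells, was higher, with 4.52 to 4.98 CPM in shAjuba1, 9.07 to 11.5 CPM in shAjuba2 and 0.887 to 3.69 CPM in controls. KLF4, another such factor that also marks differentiated colon epithelium, was higher too (17.1 to 19.9 against 10.8 to 13.7 CPM). EPCAM, also on that list, was lower. Of 20 genes of intestinal differentiation KLF4 was higher and CHGA and VIL1 lower. VIL1, the gene of the brush border protein villin, stood at 8.81, 15.6 and 25.4 CPM in KD, 26.3, 40.5 and 56.5 CPM in controls and 61.2, 56.9 and 57.1 CPM in Ajuba OE. Of 16 genes of the microRNA and shRNA machinery AGO2, which carries out hairpin silencing, was higher at 90.2 to 119.6 against 75.6 to 89.7 CPM, and the list also holds AJUBA and WTIP. The non-overlapping share was 17.6% for aldehyde dehydrogenases, 21.4% for stem cell markers, 15% for intestinal genes and 18.8% for the microRNA machinery. Over all genes it was 4.97%. None of 39 cell cycle genes, 78 cytosolic ribosomal protein genes, 48 nuclear-encoded or 13 mitochondrial respiratory chain genes was non-overlapping. Still, 2 of the 78 ribosomal and 8 of the 48 nuclear-encoded genes had a log2 fold change above 0, with medians of -0.25 and -0.24. By the median of either list, Control replicate 2 lay below every KD sample but shAjuba2 replicate 2.

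**Figure D3:**
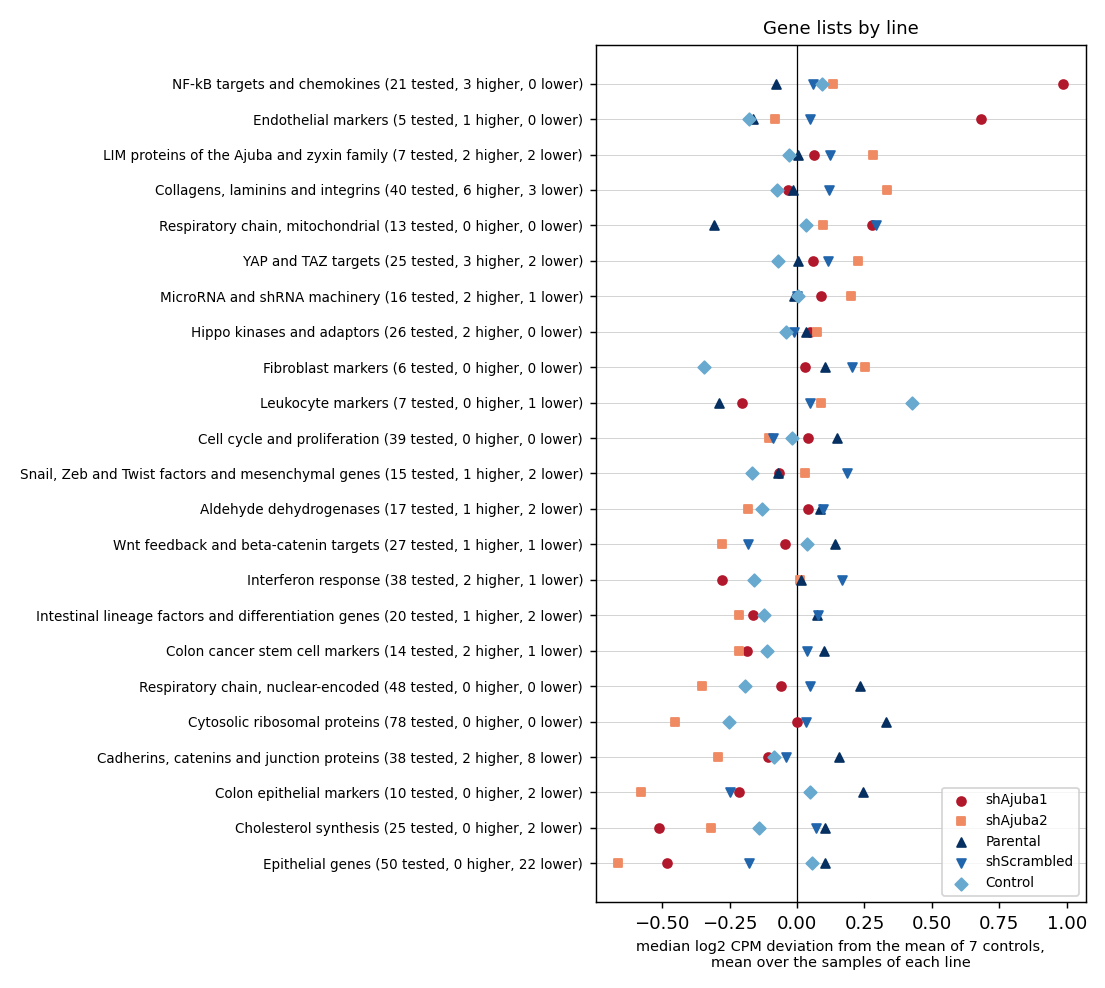
Median deviation of each gene list from the mean of the 7 control samples, in log2 CPM, with 1 point per line and the numbers tested, higher and lower beside each list name. Both KD lines lie below all 3 control lines for the epithelial and cholesterol synthesis lists, at -0.48 and -0.66 and at -0.51 and -0.32, while for NF-kB targets shAjuba1 alone stands out at 0.99.

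The KD lines differed from each other over much of the transcriptome. edgeR with the line as a factor called 5794 of 23315 genes (24.9%) between shAjuba1 and shAjuba2, and among the 1158 non-overlapping genes it called 284 (24.5%), close to the share of all genes. The log2 difference of AJUBA between shAjuba1 and shAjuba2 was -0.27, with an adjusted p of 0.0502 that missed the threshold. Of the 114 higher genes that differed, shAjuba1 was the higher line in 88, and of the 170 lower genes it was the lower line in 134, so in these shAjuba1 lay farther from the controls. As shares these are 15.9% of the higher and 22.2% of the lower genes, beside 11.8% of all genes tested with shAjuba1 higher and 13.1% with it lower. The distance from the controls also entered the choice of genes, and this count is a description. Among the control lines, the same fit called 103 of the 1158 between Parental and shScrambled (6.94% of all genes), 33 between Parental and Control (2.44%) and 126 between shScrambled and Control (8.96%), and 178 (15.4%) in at least 1 of the 3, beside 12.7% of all genes. For the 5 line means alone, 6955 genes (29.8%) were non-overlapping, so most genes with separated line means overlapped between samples.

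Chromosome 13 had the highest share of lower genes. Of 424 genes tested there, 44 were non-overlapping and lower (10.4%, beside 2.59% of all genes) and 11 higher. The next shares of lower genes were 5.73% on chromosome 18, 4.17% on the X and 4.01% on chromosome 4. In windows of 10 Mb, the lower genes lay mostly from 20 to 60 Mb, with 14 of 88, 5 of 45, 16 of 82 and 6 of 38 genes, and the median log2 fold change of all genes tested in these windows was -0.34, -0.32, -0.36 and -0.29. From 100 to 120 Mb none was lower, 8 were higher and the medians were 0.14 and 0.17. Both KD lines had the lower medians from 20 to 60 Mb, with -0.33 to -0.39 in shAjuba1 and -0.20 to -0.35 in shAjuba2, while the control lines were between -0.13 and 0.09. The following 5 genes were picked from these windows after their values were seen. RB1 (chr13:48303744-48599436), the retinoblastoma tumour suppressor, had 67, 96.1 and 123 CPM in KD and 132, 159 and 180.3 CPM in controls. ELF1, an ETS transcription factor, was at 41.6 to 58.1 against 63.0 to 85.8 CPM, and DIAPH3, a formin that builds actin filaments, at 53.2 to 76.4 against 83.9 to 113 CPM. KATNAL1, a microtubule-severing protein, was at 32.9 to 38.3 against 47.7 to 64.6 CPM and FNDC3A at 66.9 to 79.3 against 96.5 to 135 CPM. Ajuba OE overlapped the controls for RB1, at 170.4, 133 and 160.5 CPM. DNA copy number was not measured in these data. Without shAjuba2 122 genes of chromosome 13 were lower while the share over all genes was 11.4%, without shAjuba1 it was 61 beside 6.36%, and without the 2 samples low in ribosomal protein genes 69 beside 4.88%, so the counts went up on and off this chromosome.

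**Figure D4:**
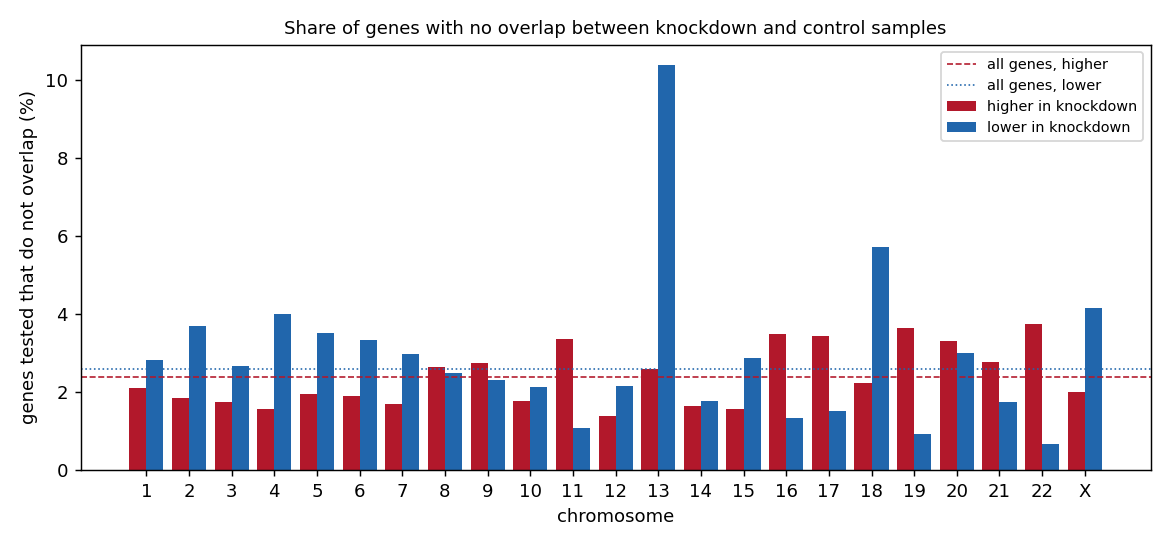
Share of the genes tested on each chromosome that were non-overlapping and higher (red bars) or lower (blue bars) in KD, in percent, with the shares over all genes as a dashed and a dotted line. Chromosome 13 has the tallest bar, with 10.4% lower, and chromosomes 22, 19, 16, 17 and 11 have the most higher genes, between 3.36% and 3.75%.

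Non-overlapping genes also differed in base composition. The median GC content of their transcripts was 57.5% for the higher and 44.5% for the lower genes, beside 48.7% for all genes tested. The genes were put into 5 groups of like size by GC content. From the lowest to the highest group the share of higher genes went from 0.48% to 5.86% and the share of lower genes from 4.19% to 0.94%. The samples themselves differed in this way. The median level of genes in the highest GC group against those in the lowest, as a log2 deviation from the mean of all samples, was 0.014 to 0.50 in the 6 KD samples and -0.51 to -0.042 in 6 of the 7 controls, with Control replicate 2 at 0.15. The counts were repeated without this tilt. With log2 CPM adjusted per sample for GC content, an alternative chosen after the data were seen, 467 genes lay above and 623 below all controls. Without the adjustment, 351 of the former and 473 of the latter were non-overlapping too. After it 33 of 424 genes tested on chromosome 13 and 26 of the 50 epithelial genes were lower, beside 623 of all 23315 genes. Some lists held fewer higher genes than before. The count went from 6 to 3 for collagens, laminins and integrins and from 3 to 1 for YAP and TAZ targets. It went from 2 to 1 for the LIM family and for interferon genes, and from 1 to 0 for aldehyde dehydrogenases. Other lists held more, from 2 to 3 for Hippo genes and from 2 to 4 for the microRNA machinery.

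**Figure D5:**
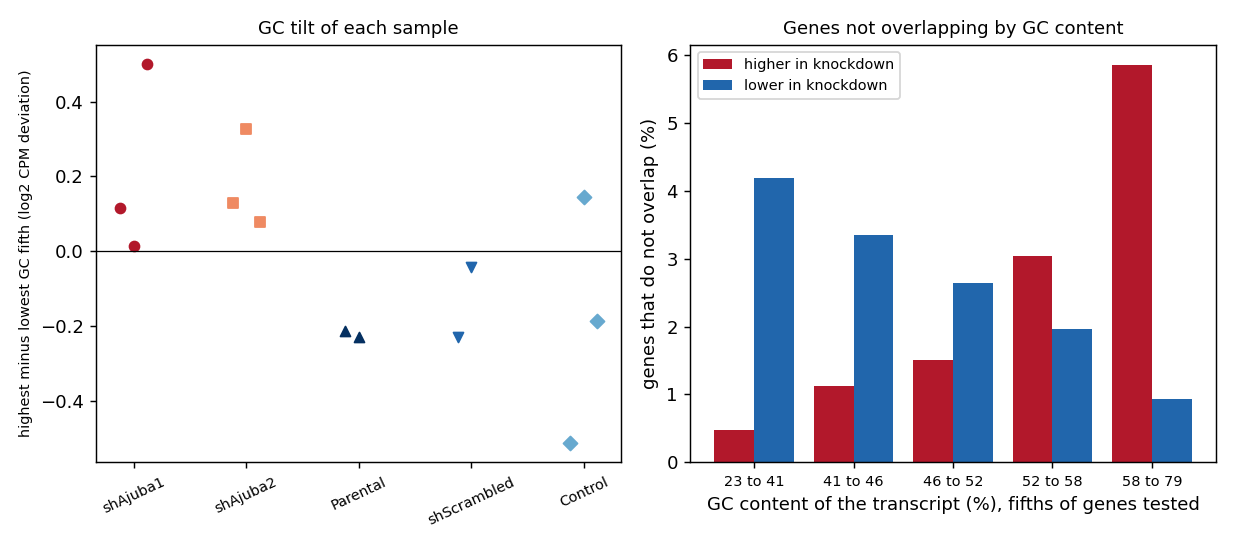
Left, the median log2 CPM deviation of genes in the highest of 5 GC groups minus that in the lowest, 1 point per sample by line. Right, the percentage of genes that were non-overlapping and higher (red) or lower (blue) in KD in each of 5 groups by transcript GC content. All KD points lie above 0, controls lie below 0 apart from Control replicate 2 at 0.15, and higher genes grow from 0.48% to 5.86% with GC content while lower genes shrink from 4.19% to 0.94%.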

How the data were processed

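Stranded mRNA libraries were sequenced in pairs of reads, and the authors aligned them to hg38 with HISAT2 and counted reads per gene with featureCounts. The deposited values were raw counts for 66023 genes. The versions, the annotation release and the strand setting of the counting are not given in the sources used here. Genes were named from GENCODE, which held 56434 of the identifiers and 99.8% of the counts. Counts were summed per line and tested with edgeR 4.0.16 in R 4.3.3 (quasi-likelihood, TMM, filterByExpr, Benjamini-Hochberg threshold 0.05), and the rule of no overlap was applied to log2 CPM with a prior count of 2. The study tested pairs of groups with DESeq2. Alternatives were DESeq2 1.42.0, limma 3.58.1 with the line as a random block (correlation 0.42), other scalings, filters, lines and samples left out. Replicates of 1 line differed by more than counting noise in all 11 pairs.

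Genes were named by a rule, namely AJUBA and genes the study names, the 12 per direction with the widest gap and at least 1 CPM in the higher group, the 5 per direction with the smallest p, and non-overlapping genes of the lists. Members and lists were chosen with earlier results of these data known. The lists of epithelial, secretory, SOX and WFDC genes, and CDH1, VIM, SNAI1, COL4A1, COL6A1, TNFAIP3 and the genes named on chromosome 13, were chosen after their values were seen. Promoter sequences came from RefSeq (GRCh38.p14). Some genes that the rule names are not reported here.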

Additional observations from a re-analysis of the deposited data

Results flagged for a closer look

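The effects of the KD lines were compared with each other, and 41 of 121 genes named differed between shAjuba1 and shAjuba2 (edgeR with the line as a factor, adjusted p under 0.05), next to 24.9% of all genes tested. The 121 leave out FANCG and LIMS2, which mark the edge of the rule, and CDX1, CEACAM5 and MS4A1, which were too low to be tested. ShAjuba1 was lower for 25 of them. The log2 difference, shAjuba1 minus shAjuba2, was -0.37 for AMOTL1, -0.39 for ALPK2, -1.14 for RNF152, -1.03 for MGAM2, -0.75 for KRT13, -0.72 for TBC1D8B, -0.80 for MCTP2, -0.86 for ESRP1, -0.46 for CLDN7, -0.59 for DSG2, -0.57 for CRB3, -0.64 for ITGB6, -0.53 for ITGB8, -1.05 for COL5A1, -0.43 for HSD17B7, -0.35 for ALDH3A1, -1.08 for SOX2, -2.06 for OAS2, -0.69 for COL4A1, -0.36 for ERBB3, -0.63 for MARVELD3, -0.36 for MYO5C, -0.90 for SCG3, -0.48 for PCLO and -1.55 for NCAM1. ShAjuba1 was higher for 16, with a log2 difference of 0.35 for ANKRD33B, 2.03 for CALB2, 0.87 for TNFSF15, 0.59 for CDH3, 0.52 for CDH11, 0.72 for AP1M2, 0.89 for COL6A2, 0.98 for VIL1, 0.26 for AMOTL2, 0.46 for RB1, 1.42 for CDH1, 1.15 for COL6A1, 1.63 for TNFAIP3, 0.47 for CHGA, 0.35 for CHGB and 1.38 for SOX8. Within each line the samples are technical replicates, so these tests cover the spread within 1 culture per hairpin.

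Ajuba OE entered no comparison. Its 3 samples lay above all 7 control samples for 36 of the same genes, beside 5.57% of all genes tested, and below all of them for 23, beside 6.88%, which is a description with no test. Where it lay above, its mean level was 557 CPM for AJUBA. For the others its mean CPM was 205 for EGFR, 3.85 for GALNT3, 8.33 for NPNT, 6.53 for PCSK1, 15.3 for TBC1D8B, 14.5 for PRSS56, 5.98 for MCTP2, 21.2 for NHS, 0.58 for KISS1R, 221 for EPCAM, 61.4 for ESRP1, 133 for CLDN7, 40.2 for CDH3, 67.9 for DSG2, 4.2 for DSC2, 9.31 for CRB3, 50.9 for LAD1, 5.17 for OVOL2, 114 for ST14, 3.63 for ITGB6, 118 for LAMA3, 26.9 for ALDH3A1, 58.4 for VIL1, 21.9 for FGF9, 97.6 for TGFBI, 8.54 for BSPRY, 34.7 for CDH1, 8.92 for MARVELD3, 61.2 for MYO5C, 4.87 for TNFAIP3, 32.2 for PCLO, 77.3 for NCAM1, 1.84 for SOX8, 75.4 for SOX13 and 1.21 for SOX14. It lay below for ADAMTS7, ALPK2, AMOTL1, AMOTL2, ANKRD1, ANKRD33B, CDH11, COL4A1, COL5A1, CRACDL, EPPIN, KLF4, LAMA4, MGAM2, NID1, OAS2, RNF152, SLC26A11, SLC26A4, SYDE1, VIM, WTIP and ZEB1. Many of these genes were chosen for their distance from the same control samples, so the shares cannot be set against those of all genes as a test.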

How the results depend on the processing

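With counts summed per line, edgeR called 0 genes under every alternative to the scaling, with at least 10 counts required in every sample, without any single sample and without any control line. It called 4 genes without shAjuba1 and 357 without shAjuba2. The calls depended on the test and the filter, with 6669 genes and AJUBA at -0.69 for edgeR with the line as a factor, 3061 and -0.70 for the samples as 2 groups, 467 and -0.70 for limma with the line as a random block, 549 and -0.71 for DESeq2, and 1032 and -0.68 with every gene of at least 1 count. AJUBA passed the threshold in these fits, with adjusted p from 8.12e-06 to 0.538 over all alternatives.

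The replicate numbers were checked as a pairing. Samples of the same number had correlations of -0.196 to 0.497 with a mean of 0.032, and 7 of 23 pairs were over 0.1. Summed ribosomal protein genes were lowest in number 2 within Control (17998 CPM), shAjuba2 (13662), Ajuba OE (24675) and shScrambled (30839). This was not so within shAjuba1 or Parental. The labels do not say what the number stands for. With the replicate block, edgeR with the line as a factor called 6629 genes and gave AJUBA -0.68. Of the 13 samples 8 lay nearest to one of their own number, which is a hint from the data and not from the design.

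The number of non-overlapping genes is bound to the number of samples. Left out one at a time, with genes filtered and scaled anew, the samples gave 1201 to 2107 genes, 534 to 947 higher and 627 to 1160 lower, each highest without Control replicate 2. It was 3960 (1981 higher, 1979 lower) without replicate 2 of every line, 1768 (837 and 931) without shScrambled, 2989 (1298 and 1691) without Control, 3225 (1677 and 1548) without shAjuba1 and 5320 (2662 and 2658) without shAjuba2. Without shAjuba2 replicate 2 and Control replicate 2, an alternative chosen after seeing the data and scaled anew, it was 2299 (1050 and 1249). Among non-overlapping genes, calls between Parental and Control ran from 5 to 61, between Parental and shScrambled from 22 to 140, and between shScrambled and Control from 35 to 163 over single samples left out. The cause of these moves beyond the smaller number of samples was not tested.

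The median log2 fold change of some lists moved by more than the spread between line means within KD and within control. Without shAjuba1 it was -0.35 for Wnt genes, 0.34 for collagens, laminins and integrins, 0.12 for NF-kB targets and -0.62 for colon epithelial markers. Without shAjuba2 it was 0.039 for the LIM family, 0.043 for Hippo genes, -0.053 for YAP and TAZ targets, -0.075 for collagens, laminins and integrins, 0.046 for aldehyde dehydrogenases, -0.42 for interferon genes and 0.63 for endothelial markers. It was 0.31 for YAP and TAZ targets without shScrambled, 0.040 for Hippo genes without Control, and 0.16 for microRNA machinery and 0.068 for endothelial markers without Parental. With at least 10 counts in every sample it was 0.31 for fibroblast and -0.13 for endothelial markers. Of 120 named genes other than AJUBA, 118 kept their direction in every alternative. SNAI1 turned to 0.089 without replicate 2 of every line, 0.042 without Control and 0.15 without shAjuba2, and COL4A1 to 0.15 without shScrambled. Each line is 1 culture, and genes of few counts, such as FGFBP1, are limited by depth.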

Other observations

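Of 26 genes of secretory granules and neuroendocrine cells tested, a list written after the values were seen, 9 were non-overlapping and lower (34.6%, beside 2.59% of all genes), 0 were higher and 17 overlapped, and 7 of the 26 had a log2 fold change above 0, with a median log2 fold change of -0.56, and limma called 8. Beside PCSK1 the 9 held the granule proteins CHGA, CHGB, SCG2 and SCG3, the synaptic vesicle protein SYP, the active zone proteins PCLO and RIMS2 and the adhesion molecule NCAM1. SYP had a mean of 28.7, 30.3 and 26.0 CPM in Parental, shScrambled and Control against 15.7 CPM in shAjuba1 and 13 CPM in shAjuba2. SCG3 had 8.80, 8.33 and 6.92 CPM in the same control lines against 1.86 and 3.49 CPM in the KD lines. NCAM1 had 46.1, 36.3 and 52.1 CPM against 10.1 and 29.5 CPM, and it was highest in Ajuba OE at 77.3 CPM.

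Of 14 SOX transcription factors, also listed after the values were seen, 5 were non-overlapping and higher and SOX14 was lower (42.9%, beside 4.97% of all genes). SOX8 had a mean of 0.49, 0.39 and 0.61 CPM in Parental, shScrambled and Control against 2.95 CPM in shAjuba1 and 1.14 CPM in shAjuba2. SOX13 had 63.1, 60.1 and 62.5 CPM against 76.2 and 76.1 CPM, and Ajuba OE was at 75.4 CPM, level with KD. Of 9 genes with a WFDC domain, which is found in small secreted protease inhibitors, EPPIN, WFDC2, WFDC8 and WFDC9 were lower (44.4%, beside 2.59% of all genes). WFDC2 had 17.3, 25.1 and 14.8 CPM against 7.21 and 8.42 CPM.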
